A study of Mus musculus with 8 samples.

Results

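The histone mark H3K27ac, found at promoters and enhancers in use, was examined around the genes of 4 transcription factors of pancreatic acinar identity, Ptf1a, Rbpjl, Nr5a2 and Bhlha15. The members were the peaks of all 8 deposited peak lists that overlapped 4 windows of the mouse build mm9: chr2:19300000-19440000 for Ptf1a, chr2:164180000-164280000 for Rbpjl, chr1:138700000-138900000 for Nr5a2 and chr5:144900000-145000000 for Bhlha15. These windows held 246 of 195577 peaks. Peaks that overlapped by at least 1 bp in any libraries were merged, which gave 39 of 33920 regions, numbered within each window by increasing coordinate. Without an mm9 gene annotation the genes were not placed on the peaks. A region is named after its window and is not assigned to that gene, and a window may hold parts of other genes.

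Acinar cells make and secrete digestive enzymes. Ptf1a, a basic helix-loop-helix factor, and Rbpjl, an acinar relative of the Notch effector Rbpj, are subunits of the PTF1 complex, which binds and activates digestive enzyme genes and the genes of its own subunits. Nr5a2, an orphan nuclear receptor also called LRH-1, works with PTF1 on enzyme genes, and Bhlha15, also called Mist1, is a basic helix-loop-helix factor of secretory cell maturation. Loss of these factors is known to accompany the change of acinar cells to a duct-like state, a change that signalling from the EGF receptor can drive.

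The cells were 266-6, an established mouse acinar line. In the group named knockdown plus EGF below, EGF followed siRNA against ARID1A, which is part of the SWI/SNF (BAF) chromatin remodeller. The EGF group had a non-targeting siRNA and EGF, the knockdown group had the ARID1A siRNA and vehicle, and the control group had the non-targeting siRNA and vehicle. All 4 groups had 25 nM siRNA for 48 h and a night without serum, and then 8 h of EGF at 40 ng/ml or of 0.1% BSA as vehicle. Each group had 2 libraries, and since nothing says that these came from separate cultures, p-values measure the spread between libraries, which may be technical. The knockdown was transient, a match of the siRNAs to mouse Arid1a is not stated, and Arid1a levels were not analysed here. The acinar label was not checked here. Each window held peaks in all 8 libraries, but peaks somewhere in a window of this size are no check of cell identity.

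Read depth is unknown. The lists held 22030 to 28281 peaks and covered 34.2 and 36.8 Mb with knockdown plus EGF, 33.9 and 35.5 Mb with EGF, 46.3 and 48.7 Mb with knockdown, and 34.3 and 47.2 Mb in the controls. Control library 1 was thus as short as the EGF libraries and control library 2 as long as the knockdown libraries. The part of list length in the results was not tested, and values relative to the total are given beside the plain ones.

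Peaks of the 4 windows numbered 29 and 32 with knockdown plus EGF, 26 and 27 with EGF, 36 and 35 with knockdown, and 26 and 35 in the controls. Of the 39 regions, 8 had a peak in 1 library only and were not tested, 31 had a peak in at least 2 libraries and were tested, and 20 had a peak in all 8. The 8 that were seen in 1 library were 206 to 825 bp wide, while the 20 were 1331 to 14552 bp wide.

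**Figure D1:**
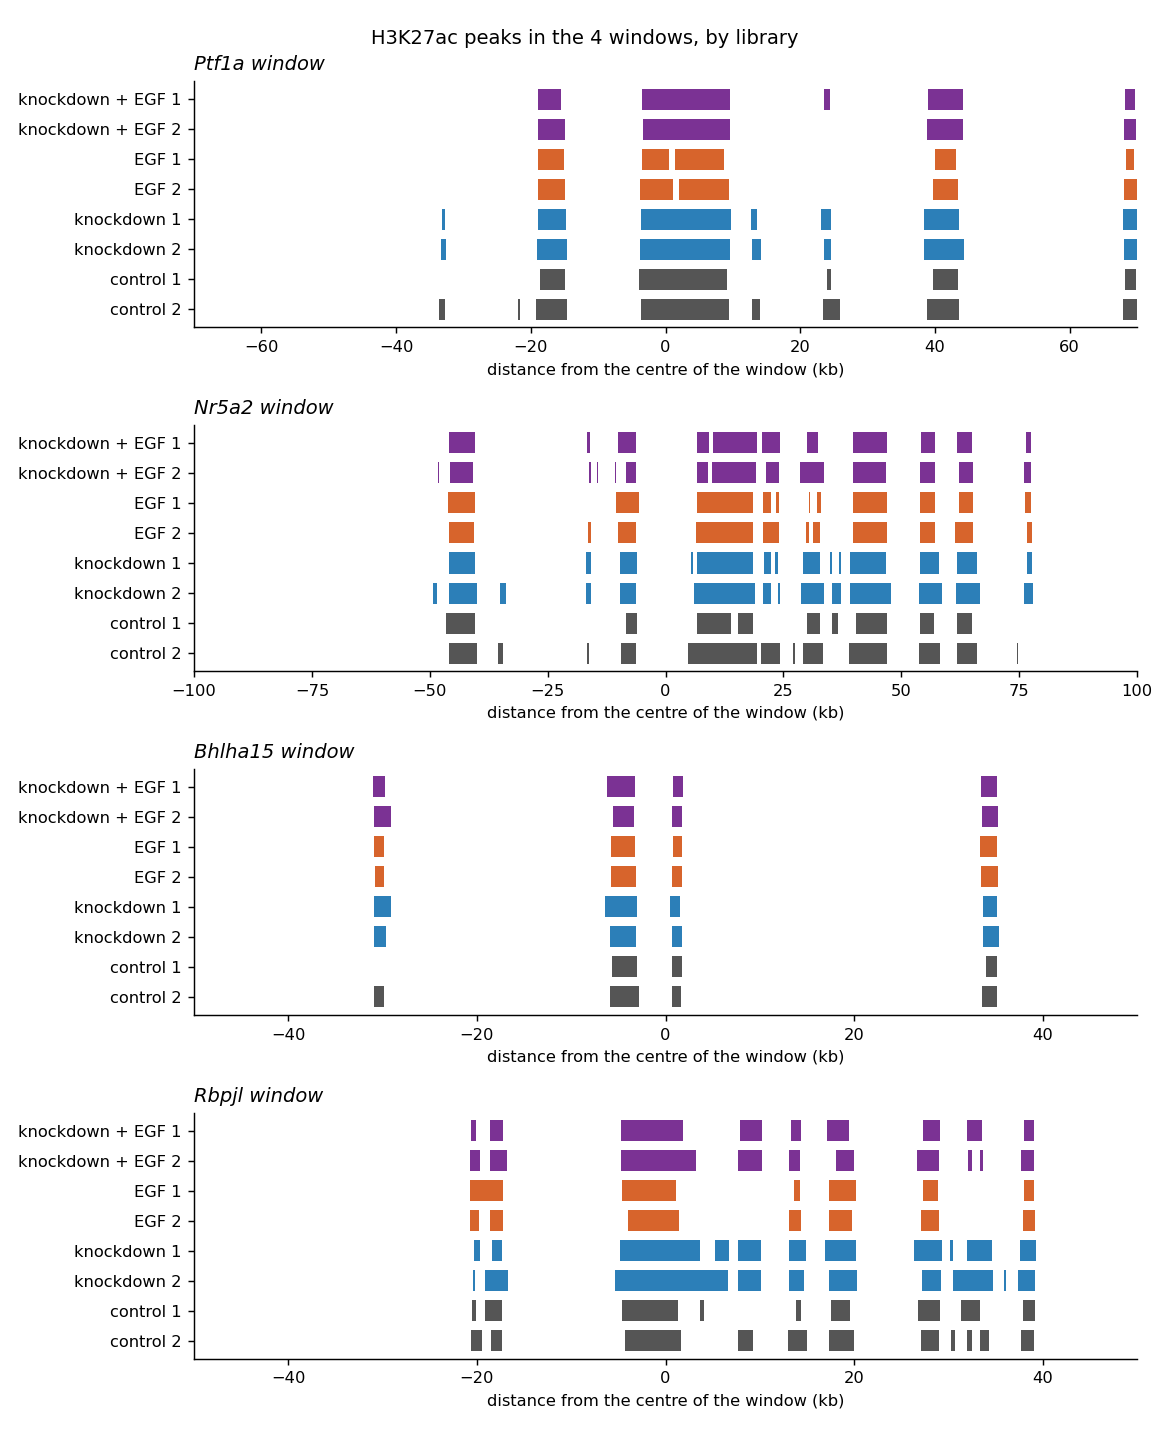
Peaks of each library (bars, 1 row per library) in the 4 windows, by distance in kb from the centre of the window. The wide blocks recur in all 8 rows, with 4 such regions in the Ptf1a window, 7 at Nr5a2, 3 at Bhlha15 and 6 at Rbpjl, and short peaks between them come and go.

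The Ptf1a window held 46 peaks in 8 regions. In GRCm38.p6, the build of the RefSeq gene table, Ptf1a lies next to Msrb2, a methionine sulfoxide reductase gene. Peaks covered 24.2 and 24.0 kb of the window with knockdown plus EGF, 19.6 and 22.1 kb with EGF, 27.5 and 28.8 kb with knockdown, and 22.9 and 29.2 kb in the controls. All 4 knockdown libraries exceeded both EGF libraries, but control library 2 was the highest of all 8. Group means were 24.1 ± 0.159 kb with knockdown plus EGF, 20.9 ± 1.80 kb with EGF, 28.2 ± 0.909 kb with knockdown and 26.1 ± 4.46 kb in the controls (SD, n = 2 each).

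The widest peak at Ptf1a, region 4 at chr2:19366039-19379718, covered 13115 and 13060 bp with knockdown plus EGF, 11344 and 12370 bp with EGF, 13310 and 13362 bp with knockdown, and 13096 and 13118 bp in the controls. The 2 EGF libraries were the lowest. It was 1 unbroken peak in 6 libraries, while in both EGF libraries it was 2 peaks, parted by gaps of 884 and 913 bp. No deposited list had neighbouring peaks nearer than 801 bp, so a shorter gap would not show. The split was not tested.

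Region 3 of the Ptf1a window, at chr2:19350725-19355377, was the most enriched there. Fold enrichment is the authors' value over the caller's background, set separately in each library, and each value below is that of the highest peak in the region. It was 8.73 and 8.66 with knockdown plus EGF, 7.24 and 7.65 with EGF, 12.4 and 13.3 with knockdown, and 9.36 and 11.8 in the controls. All 4 EGF-treated libraries lay below all 4 vehicle libraries. The within-list percentile of that fold was 92.4 and 93.5 with knockdown plus EGF, 91.5 and 90.2 with EGF, 98.2 and 99.0 with knockdown, and 98.3 and 98.6 in the controls. The covered length of the region did overlap, at 3422 to 4046 bp in the EGF-treated and 3783 to 4652 bp in the vehicle libraries.

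Region 8 of the Ptf1a window, at chr2:19438000-19440354 on the window's edge, had folds of 4.40 and 4.49 with knockdown plus EGF, 4.28 and 3.73 with EGF, 6.15 and 6.53 with knockdown, and 5.79 and 5.79 in the controls. It too was lower in all 4 EGF-treated libraries. Its covered length was 1293 to 2261 bp in the EGF-treated and 1573 to 2355 bp in the vehicle libraries, which overlap.

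**Figure D2:**
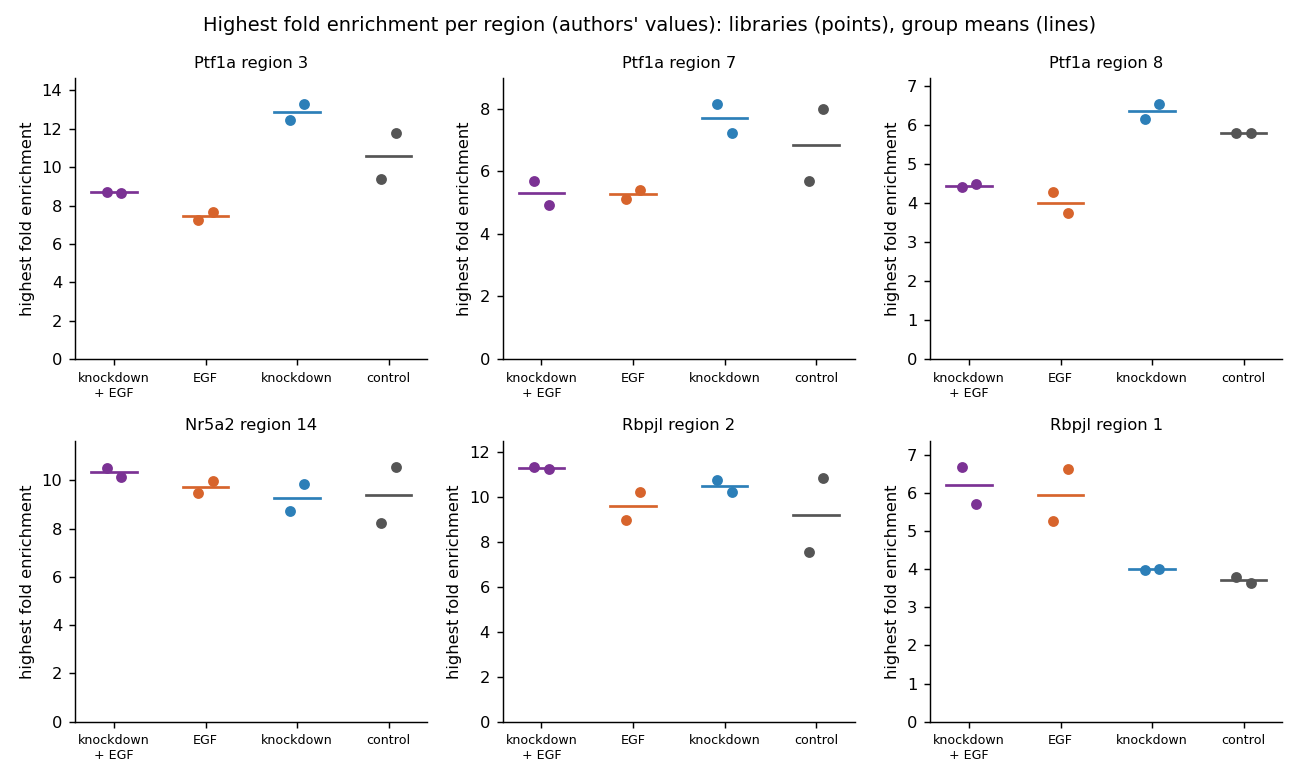
Highest fold enrichment (the authors' ratio over the caller's background, linear axis from 0) of 6 regions in each library (points) with group means (lines). At Ptf1a regions 3 and 8 the 4 EGF-treated libraries lie below the 4 vehicle libraries, and at Rbpjl region 1 they lie above them, while at Nr5a2 region 14 and Rbpjl region 2 the EGF-treated and vehicle libraries overlap.

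The minor peaks of the Ptf1a window differed in presence. Region 5, at chr2:19382744-19384132, covered 836 and 1232 bp with knockdown and 0 and 1092 bp in the controls, and had no peak in either library of the groups with EGF. Region 1, at chr2:19336403-19337405, had the same pattern, with 453 and 799 bp with knockdown and 0 and 789 bp in the controls. Region 6, at chr2:19393083-19395948, covered 922 and 0 bp with knockdown plus EGF, no base with EGF, 1534 and 1113 bp with knockdown, and 656 and 2570 bp in the controls. Presence of these 3 regions was fully split by EGF in 1 Arid1a state only. The EGF differences in the Arid1a states were not shown to differ (limma, described below, adjusted p = 0.908, 0.865 and 0.877 at regions 1, 5 and 6). Regions 1 and 5 had peaks only in control library 2 and both knockdown libraries, the longest lists, covering 47.2, 46.3 and 48.7 Mb. There, presence cannot be told apart from list length. A region without a called peak may still carry the mark below the caller's limit.

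None of these passed the test on all 8 libraries. Covered length was compared with limma on log2(covered bp + 200) over 28146 regions, with the Benjamini-Hochberg adjustment and a limit of 0.05, and standard errors (SE) follow the ± sign. A log2 difference against a group without a peak depends on the added 200 bp and is not a fold. For EGF in knockdown cells (knockdown plus EGF against knockdown) limma gave -2.61 ± 0.84 at region 5 (adjusted p = 0.128) and -2.01 ± 0.75 at region 1 (adjusted p = 0.167). Control libraries enter this comparison only through the spread that all groups share. Fits without a control library are therefore not read as further support. Region 6 gave -2.31 ± 0.65 for the mean EGF effect (limma, adjusted p = 0.0679), which is the average of the EGF differences in both Arid1a states. On leaving out a library in turn it was -2.93 to -1.69. Region 7, at chr2:19408362-19414345, covered 5210 and 5236 bp with knockdown plus EGF, 3097 and 3733 bp with EGF, 5171 and 5972 bp with knockdown, and 3794 and 4777 bp in the controls. All 4 knockdown libraries exceeded all 4 with the non-targeting siRNA. The mean knockdown effect was 0.48 ± 0.10 (limma, adjusted p = 0.0891), which missed the limit, and 0.40 to 0.56 on leaving out a library in turn.

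The Rbpjl window held 73 peaks in 9 regions, with Matn4, a matrilin gene, and Sdc4, a syndecan gene, as neighbours of Rbpjl in GRCm38.p6. Peaks covered 18.7 and 20.9 kb with knockdown plus EGF, 15.6 and 14.5 kb with EGF, 26.9 and 30.0 kb with knockdown, and 17.0 and 19.9 kb in the controls. The 2 EGF libraries were the lowest and the 2 knockdown libraries the highest, and the groups did not overlap except for knockdown plus EGF with the controls. Group means were 19.8 ± 1.54 kb with knockdown plus EGF, 15.0 ± 0.743 kb with EGF, 28.4 ± 2.24 kb with knockdown and 18.4 ± 2.04 kb in the controls (SD, n = 2 each).

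In the Rbpjl window, region 2, at chr2:164224601-164236767, was the widest and most enriched. It covered 6603 and 7984 bp with knockdown plus EGF, 5770 and 5461 bp with EGF, 9974 and 12061 bp with knockdown, and 6434 and 5988 bp in the controls. The 4 knockdown libraries lay above the 4 others. The mean knockdown effect was 0.58 ± 0.09 (limma, adjusted p = 0.0639) and the mean EGF effect -0.36 ± 0.09 (limma, adjusted p = 0.0550), and neither passed. Without control library 2 the knockdown effect was 0.56. Its highest fold was 11.3 and 11.2 with knockdown plus EGF, 8.97 and 10.2 with EGF, 10.8 and 10.2 with knockdown, and 7.54 and 10.8 in the controls. Both knockdown plus EGF libraries lay above the 6 others, while the EGF-treated and the vehicle libraries overlapped.

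Region 7 of the Rbpjl window, at chr2:164260209-164264742, had the lowest adjusted p of all member regions. It covered 1579 and 732 bp with knockdown plus EGF, 0 and 0 bp with EGF, 2948 and 4213 bp with knockdown, and 2083 and 2010 bp in the controls. Every EGF-treated library lay below every vehicle library, and the EGF libraries had no peak. Of all regions, 4.26% had peaks in both controls and in no EGF library. How many regions lacking a peak in some libraries were separated by all 4 libraries a side was not computed. It fell with EGF in cells with intact Arid1a, by 3.49 ± 0.34 on the log2 scale (limma, adjusted p = 0.0214), and in the mean EGF effect, by 2.51 ± 0.24 (limma, adjusted p = 0.00587). In knockdown cells the EGF difference was -1.53 ± 0.34 (limma, adjusted p = 0.0534). With EGF present it rose with knockdown, by 2.69 ± 0.34 (limma, adjusted p = 0.0428), and without EGF the difference was 0.73 ± 0.34 (limma, adjusted p = 0.448).

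The mean EGF call of this region held under all 17 alternatives that gave a value, with adjusted p from 0.00418 to 0.0297 (limma). The alternative without a value kept only peaks with a −log10 q-value of at least 5 from the caller. This region had no such peak, its highest being 2.56, so the call rests on weak peaks. The call for EGF in intact cells was lost without either EGF or either knockdown library (adjusted p 0.0509 to 0.107), with lists of equal length (0.0570) and with the replicate number as a block (0.0551). The knockdown call with EGF was lost without any library but control library 2 (adjusted p 0.0533 to 0.200), with lists of equal length (0.226), with the block (0.106) and with 1000 bp added in place of 200 bp (0.146). The mean knockdown effect was 1.71 ± 0.24 (limma, adjusted p = 0.0571), which did not pass, and 1.70 without control library 2. The EGF differences in the 2 Arid1a states were not shown to differ, since the interaction was 1.96 ± 0.47 (limma, adjusted p = 0.240). The region is weakly enriched, with folds of 3.34 to 3.82 in the 6 libraries with a peak.

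Region 3 of the Rbpjl window, at chr2:164237664-164240276, covered 2424 and 2555 bp with knockdown plus EGF, 0 and 0 bp with EGF, 2440 and 2429 bp with knockdown, and 0 and 1615 bp in the controls. All 4 knockdown libraries were alike and exceeded the 4 others, of which 3 had no peak. Of all regions, 2.02% had peaks in both knockdown plus EGF libraries and in no EGF library. The share of such regions separated by all 4 libraries a side was not computed. The knockdown difference with EGF was 3.75 ± 0.94 (limma, adjusted p = 0.178) and did not pass.

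Region 1 of the Rbpjl window, at chr2:164209246-164213247, went the other way in enrichment. Its highest fold was 6.69 and 5.72 with knockdown plus EGF, 5.26 and 6.64 with EGF, 3.98 and 4.02 with knockdown, and 3.80 and 3.65 in the controls. All 4 EGF-treated libraries exceeded all 4 vehicle libraries. The within-list percentile was 76.0 and 67.9 with knockdown plus EGF, 65.3 and 80.6 with EGF, 32.9 and 35.9 with knockdown, and 22.1 and 22.4 in the controls. Its covered length, 1882 to 3462 bp in the EGF-treated and 1777 to 2608 bp in the vehicle libraries, overlapped. The same window thus held a region with a stronger and a region with a shorter peak in the EGF-treated libraries.

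**Figure D3:**
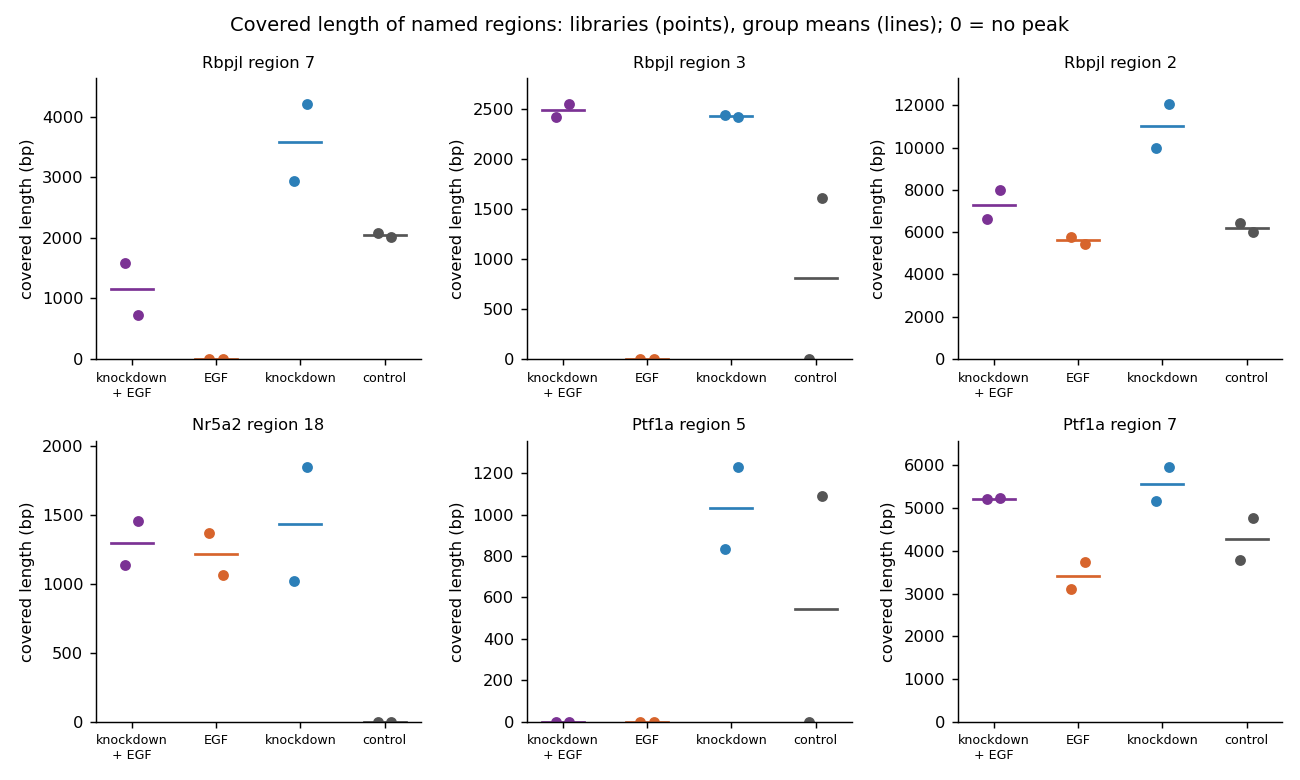
Covered length in bp of 6 regions in each library (points; 0 means no called peak) with group means (lines), on linear axes from 0. Rbpjl region 7 and region 3 have no peak in the 2 EGF libraries, Nr5a2 region 18 has none in the 2 controls, and Ptf1a region 5 has none in the 4 EGF-treated libraries.

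The Nr5a2 window, the longest, held 96 peaks in 18 regions, 6 of them seen in 1 library only. Zfp281, a zinc finger gene, and Ptprc, the CD45 gene of leukocytes, are its neighbours in GRCm38.p6. Peaks covered 42.2 and 42.2 kb with knockdown plus EGF, 40.0 and 42.5 kb with EGF, 45.8 and 54.7 kb with knockdown, and 35.0 and 50.7 kb in the controls. Control library 1 was the lowest of all 8, and control library 2 was exceeded by knockdown library 2 alone. Group means were 42.2 ± 0.0156 kb with knockdown plus EGF, 41.2 ± 1.76 kb with EGF, 50.2 ± 6.31 kb with knockdown and 42.8 ± 11.2 kb in the controls (SD, n = 2 each).

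The widest Nr5a2 region was region 9, at chr1:138804795-138819346, which covered 11746 and 11491 bp with knockdown plus EGF, 11859 and 12115 bp with EGF, 12213 and 13010 bp with knockdown, and 10186 and 14514 bp in the controls. The controls spanned all other libraries. Region 9 was 2 peaks in both knockdown plus EGF libraries, parted by gaps of 874 and 840 bp. It was also 2 peaks in control library 1 (gap 1618 bp) and knockdown library 1 (gap 871 bp). Elsewhere it was 1 peak, in both EGF libraries too. The most enriched was region 14, at chr1:138839029-138847798, with folds of 10.5 and 10.2 with knockdown plus EGF, 9.49 and 9.97 with EGF, 8.73 and 9.83 with knockdown, and 8.24 and 10.6 in the controls. The controls were both the lowest and the highest. It was 1 peak in each library, of 7163 and 7034 bp with knockdown plus EGF, 7018 and 7261 bp with EGF, 7690 and 8760 bp with knockdown, and 6456 and 7884 bp in the controls.

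Region 18, at chr1:138876104-138877951, was the only Nr5a2 region past the limit in any comparison. It covered 1133 and 1453 bp with knockdown plus EGF, 1369 and 1060 bp with EGF, 1017 and 1848 bp with knockdown, and 0 and 0 bp in the controls. The 3 treated groups overlapped and each exceeded the controls, which had no peak. It rose with EGF in intact cells, by 2.81 ± 0.32 (limma, adjusted p = 0.0214), with knockdown without EGF, by 2.98 ± 0.32 (limma, adjusted p = 0.0386), and in the mean EGF effect, by 1.36 ± 0.23 (limma, adjusted p = 0.0189).

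Where the other treatment was already present the difference at region 18 was near 0, at -0.09 ± 0.32 for EGF in knockdown cells and 0.08 ± 0.32 for knockdown with EGF (limma, adjusted p = 0.903 and 1). The interaction was -2.90 ± 0.46 (limma, adjusted p = 0.153) and did not pass. The mean knockdown effect was 1.53 ± 0.23 (limma, adjusted p = 0.0613) and did not pass. The call for EGF in intact cells was lost without either EGF or either knockdown library (adjusted p 0.0509 to 0.119), with lists of equal length (0.197) and with the replicate block (0.0551). That for the mean EGF effect was lost without EGF library 1 or either knockdown plus EGF library (adjusted p 0.0554 to 0.0717), with lists of equal length (0.117) and with 1000 bp added (0.0510). The call for knockdown without EGF was lost under 14 of 17 alternatives, among them leaving out any library but control library 2 (0.0842 to 0.328). The peaks are weak, with folds of 3.32 to 3.97.

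Other Nr5a2 regions differed without passing. Region 13, at chr1:138834848-138837335, covered 1182 and 1925 bp with knockdown and 1168 and 0 bp in the controls, and had no peak in the 4 EGF-treated libraries. For EGF in knockdown cells it gave -3.10 ± 0.87 (limma, adjusted p = 0.0955) and did not pass. The highest fold of region 15, at chr1:138853758-138858684, was 5.94 and 5.48 with knockdown plus EGF, 5.63 and 5.86 with EGF, 7.35 and 8.40 with knockdown, and 6.06 and 7.95 in the controls. It was lower in all EGF-treated libraries, as it was at region 12, at chr1:138828601-138833645, with 3.67 to 4.13 in the EGF-treated and 4.32 to 4.71 in the vehicle libraries. At region 16, at chr1:138861426-138866702, the fold was 6.89 to 8.36 in the 4 knockdown libraries and 4.88 to 6.49 in the 4 with the non-targeting siRNA.

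The Bhlha15 window held 31 peaks in 4 regions, 3 of them with a peak in all 8 libraries, and Lmtk2, a kinase gene, and Tecpr1, an autophagy gene, are the neighbours of Bhlha15 in GRCm38.p6. Peaks covered 6.96 and 6.72 kb with knockdown plus EGF, 6.34 and 6.46 kb with EGF, 7.72 and 6.73 kb with knockdown, and 4.88 and 6.50 kb in the controls. Control library 1 was the lowest of all 8. Group means were 6.84 ± 0.168 kb with knockdown plus EGF, 6.40 ± 0.0898 kb with EGF, 7.22 ± 0.702 kb with knockdown and 5.69 ± 1.14 kb in the controls (SD, n = 2 each).

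The widest region at Bhlha15, which also had the highest mean fold percentile, was region 2, at chr5:144943583-144947139, with 2939 and 2220 bp with knockdown plus EGF, 2574 and 2722 bp with EGF, 3372 and 2810 bp with knockdown, and 2613 and 2980 bp in the controls. Its folds were 4.53 to 6.28 over the 8 libraries, and region 4 had the higher fold in several of them. Neither treatment separated its libraries in either measure. Region 3, at chr5:144950501-144951831, covered 904 to 1057 bp over the 8 libraries.

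Region 4 of the Bhlha15 window, at chr5:144983409-144985345, had folds of 5.73 and 6.41 with knockdown plus EGF, 5.78 and 5.73 with EGF, 5.66 and 5.37 with knockdown, and 3.97 and 5.20 in the controls. The 4 EGF-treated libraries were higher than the 4 vehicle libraries, with the nearest at 5.73 and 5.66. Its covered length gave a mean EGF effect of 0.16 ± 0.10 (limma, adjusted p = 0.293). Relative to the library's total, an alternative chosen after seeing the data, it passed (0.45, limma, adjusted p = 0.0257). That fit called 1297 of 28146 regions higher and 1802 lower. Region 1, at chr5:144919003-144920923, had a peak of 977 to 1854 bp in 7 libraries and none in control library 1. Its mean knockdown effect was 1.15 ± 0.56 (limma, adjusted p = 0.360), and 0.50 to 1.80 on leaving out a library in turn.

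Sequences just before the start sites of Rbpjl and Bhlha15 are shown because these windows stood at opposite ends of the EGF comparison, and because basic helix-loop-helix factors such as Ptf1a and Bhlha15 bind E-boxes of the form CANNTG. They are the 250 bases upstream of the RefSeq start in GRCm38.p6, plus strand, at chr2:164402944-164403193 for Rbpjl and chr5:144190036-144190285 for Bhlha15, with each CANNTG in capitals. Their place relative to the mm9 peaks was not determined.
Rbpjl: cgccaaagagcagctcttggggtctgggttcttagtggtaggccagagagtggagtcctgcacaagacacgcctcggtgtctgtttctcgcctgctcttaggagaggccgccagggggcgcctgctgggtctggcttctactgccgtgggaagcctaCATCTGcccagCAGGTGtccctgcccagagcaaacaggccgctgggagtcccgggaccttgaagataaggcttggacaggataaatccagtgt
Bhlha15: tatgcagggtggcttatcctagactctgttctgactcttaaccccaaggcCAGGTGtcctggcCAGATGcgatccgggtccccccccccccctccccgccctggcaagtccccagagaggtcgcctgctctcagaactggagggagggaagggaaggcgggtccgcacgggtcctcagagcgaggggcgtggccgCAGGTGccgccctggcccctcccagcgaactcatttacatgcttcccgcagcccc

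The motif CANNTG reads the same on both strands. It occurred 2 times before Rbpjl and 3 times before Bhlha15, against at least 2 times in 31.8% and at least 3 times in 12.2% of 32851 mouse promoters of that length. CAGGTG on either strand, which is 1 form of CANNTG, occurred once before Rbpjl, as in 17.2% of promoters with at least 1, and 2 times before Bhlha15, as in 2.06% with at least 2. The Ptf1a sequence had no CANNTG, and the Nr5a2 entries, at 2 starts, had 2 and 3. A match describes letters and not a bound site.

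Over whole windows, covered length was compared in 1 limma fit with 100 kb tiles of the genome, 11056 tiles and windows in all. The Rbpjl window fell with EGF, with a mean EGF effect of -0.40 ± 0.09 (95% interval -0.61 to -0.20, limma, adjusted p = 0.0299), and was the only member called, in a comparison where 14.2% of tiles and windows were called lower and 1.47% higher. The median tile moved by -0.28. Relative to the total covered length of its library the Rbpjl difference was -0.09 (limma, adjusted p = 0.433), and the call was also lost on leaving out any EGF, knockdown or knockdown plus EGF library (adjusted p 0.0664 to 0.110).

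The other windows did not pass for EGF. Ptf1a gave -0.27 (95% interval -0.50 to -0.04, limma, adjusted p = 0.101), Nr5a2 -0.14 (-0.45 to 0.18, adjusted p = 0.469) and Bhlha15 0.05 (-0.21 to 0.31, adjusted p = 0.749). Ptf1a was thus close to the median tile, and Bhlha15 was the member farthest above it. Relative to the total, Bhlha15 gave 0.36 (95% interval 0.17 to 0.56, limma, adjusted p = 0.0330), Nr5a2 0.18 (adjusted p = 0.100) and Ptf1a 0.05 (adjusted p = 0.592). That fit, chosen after seeing the data, called 651 of 11056 tiles and windows higher and 810 lower.

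**Figure D4:**
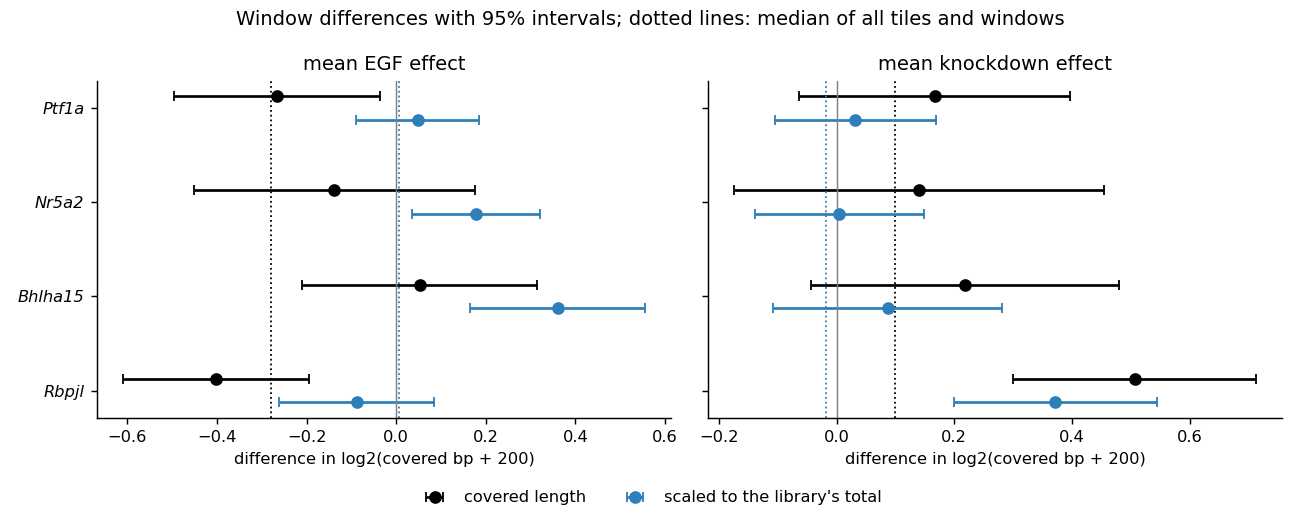
Differences of the 4 windows in log2(covered bp + 200) with 95% intervals (limma), for the mean EGF effect and the mean knockdown effect, as plain covered length (black) and relative to the library's total (blue); dotted lines are the medians over all tiles and windows. Rbpjl has the lowest EGF and the highest knockdown difference of the 4 windows on both scales.

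For knockdown no window passed, in a comparison where 0.00904% of tiles and windows were called in each direction. Rbpjl gave 0.51 ± 0.09 (95% interval 0.30 to 0.71, limma, adjusted p = 0.100). Without control library 2 the Rbpjl value was 0.56, in a fit where far more tiles and windows were called in both directions. Bhlha15 gave 0.22 (-0.04 to 0.48, adjusted p = 0.361), Ptf1a 0.17 (-0.06 to 0.40, adjusted p = 0.424) and Nr5a2 0.14 (-0.17 to 0.45, adjusted p = 0.624), against 0.10 for the median tile. Without control library 1 the Ptf1a value was 0.08 and the Nr5a2 value 0.0066. Relative to the total the knockdown differences were 0.37 at Rbpjl (limma, adjusted p = 0.0510), 0.09 at Bhlha15, 0.03 at Ptf1a and 0.005 at Nr5a2.

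Relative to each library's total, in bp per covered Mb, Rbpjl stood at 546 and 567 with knockdown plus EGF, 459 and 409 with EGF, 580 and 617 with knockdown, and 495 and 421 in the controls. All 4 knockdown libraries exceeded the 4 others, as did 3.58% of tiles and windows. Bhlha15 stood at 203 and 183 with knockdown plus EGF, 187 and 182 with EGF, 167 and 138 with knockdown, and 142 and 138 in the controls. Nr5a2 stood at 1232 and 1146 with knockdown plus EGF, 1180 and 1196 with EGF, 988 and 1124 with knockdown, and 1018 and 1076 in the controls. Both windows were higher in all 4 EGF-treated libraries than in the 4 vehicle libraries, as were 9.86% of tiles and windows. Ptf1a stood at 708 and 653 with knockdown plus EGF, 578 and 623 with EGF, 594 and 592 with knockdown, and 667 and 619 in the controls, with no separation by either treatment. No window was lower in all 4 EGF-treated libraries, as 7.41% of tiles and windows were, or in all 4 knockdown libraries, as 3.26% were.

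**Figure D5:**
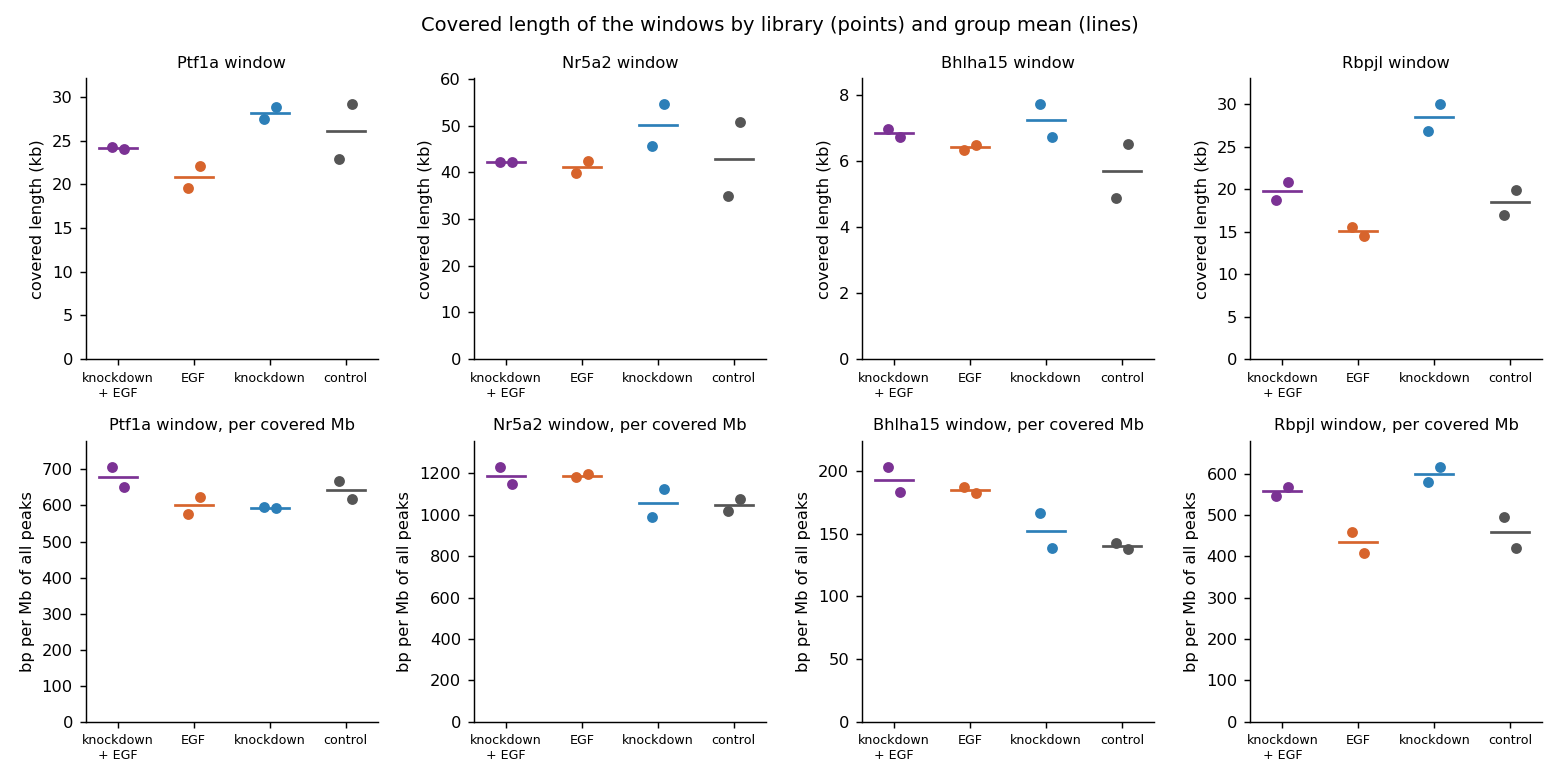
Covered length of each window in kb (top) and in bp per Mb of all peaks of the library (bottom), by library (points) with group means (lines), on linear axes from 0. The knockdown libraries of Rbpjl reach 26.9 and 30.0 kb, and Bhlha15 and Nr5a2 are higher with EGF in the lower row.

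The windows followed each other over the 8 libraries, and also the library total they all share. Pearson's r of log2(covered bp + 200) was 0.804 for Ptf1a with Rbpjl, 0.786 for Ptf1a with Nr5a2, 0.698 for Nr5a2 with Rbpjl, 0.615 for Nr5a2 with Bhlha15, 0.503 for Bhlha15 with Rbpjl and 0.391 for Ptf1a with Bhlha15. With the total covered length it was 0.904 for Ptf1a, 0.873 for Nr5a2, 0.816 for Rbpjl and 0.458 for Bhlha15. These are descriptions of 8 libraries.

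Counted over the 31 tested member regions, limma called 2 for EGF in intact cells, Nr5a2 region 18 higher, where 1.05% of all regions were called higher, and Rbpjl region 7 lower, where 2.9% were. For EGF in knockdown cells it called 0, where 0.622% of all regions were called higher and 6% lower. An unadjusted p under 0.05 was found at 9 of the 31 members and at 24.9% of all regions. For the mean EGF effect the same 2 regions were called, where 1.79% were called higher and 11.2% lower. The member regions' median difference was -0.21 and that of all regions -0.25.

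For knockdown without EGF limma called Nr5a2 region 18 higher, where 1.09% of all regions were called higher and 0.274% lower. For knockdown with EGF it called Rbpjl region 7 higher, where 0.234% were called higher and 0.426% lower. For the mean knockdown effect it called 0 members, where 0.213% were called higher and 0.139% lower. Here 5 of the 31 members and 17.9% of all regions had an unadjusted p under 0.05, and the median was 0.18 for the members and 0.11 for all regions. The interaction gave 0 calls among members and among all regions, and the unadjusted p was under 0.05 at 3 of the 31 members and at 8.97% of all regions. Comparisons that share a group are not independent.

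In presence, counted over all 39 regions, 1 region (2.56%) had peaks in both libraries of the EGF group and in no control, Nr5a2 region 18, where 2% of all regions did. In reverse there were 2 (5.13%), Ptf1a region 6 and Rbpjl region 7, where 4.26% did. Between knockdown plus EGF and knockdown, 0 were gained, against 0.996% of all regions, and 3 were lost (7.69%), Ptf1a regions 1 and 5 and Nr5a2 region 13, against 8.4%. Knockdown against control gave 1 gained, Nr5a2 region 18, against 3.04%, and 0 lost, against 0.778%. Knockdown plus EGF against EGF gave 2 gained (5.13%), Rbpjl regions 3 and 7, against 2.02%, and 0 lost, against 2.34%. With all 4 libraries required on a side, no member was gained or lost by EGF, against 0.404% and 1.61% of all regions, or by knockdown, against 0.259% and 0.13%.

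Among the 20 member regions with a peak in all 8 libraries, the highest fold was lower in all EGF-treated than in all vehicle libraries at 4 (20%), Ptf1a regions 3 and 8 and Nr5a2 regions 12 and 15, against 17.5% of 16607 such regions, and higher at 2 (10%), Bhlha15 region 4 and Rbpjl region 1, against 6.11%. By knockdown it was higher at Nr5a2 region 16 alone, against 8.7%, and lower at none, against 0.891%. Covered length was longer in all knockdown libraries at 2, Ptf1a region 7 and Rbpjl region 2, against 4.95%, and shorter at 0, against 0.867%. None of these 20 was separated by EGF in covered length, against 15.8% of such regions shorter and 1.94% longer. Rbpjl region 7, which had no peak in the EGF libraries, is not among the 20. These member shares rest on 20 regions.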

How the data were processed

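The members and the lists named in the report were chosen with earlier results of these data known. The authors deposited a separate peak list for each of the 8 libraries. The submitters' processing notes name MACS2 2.1.1.20160309.0, deepTools 3.0.2, Bowtie2 2.3.4.2 and SAMtools, and build mm9, with no role or order. Of the caller's settings and of an input library nothing is stated. Each deposited peak carries the authors' score, fold enrichment (a ratio to background set by the caller), −log10 p-value and −log10 q-value. Folds were used to describe peaks, and score and −log10 q only to select them in alternatives. Depth is unknown, and longer lists can come from deeper libraries.

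Covered length per merged region, and per 100 kb tile or window, was computed from the peak positions. Limma 3.58.1 (R 4.3.3, empirical Bayes with a trend) modelled log2(covered bp + 200) by 4 group means, over features with a peak in at least 2 libraries. Adjusted p-values are Benjamini-Hochberg over all regions, or all tiles and windows. Other steps used Python 3.11.15, pandas 2.3.3 and NumPy 2.4.6, and both steps were tested on simulated data.

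Named regions were, in each window, the widest, the highest by fold percentile, those called, those present in all libraries of a side and none of the other, and those of lowest raw p for either mean effect; regions that the fold or length separated were added after their values were seen. Gene lists, cell type markers and peak sequences need an mm9 genome or annotation and were not analysed here. Neighbours and promoters, which matched all 4 genes, are from RefSeq, GRCm38.p6. Same-numbered libraries did not deviate together over the regions (r from -0.00929 to 0.0317), and the main fit did not pair them. With 2 libraries a group this cannot show whether same-numbered libraries shared a culture.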

Additional observations from a re-analysis of the deposited data

How the results depend on the processing

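Leaving out a library in turn, the count of member regions called by limma ranged from 0 to 5 for EGF in intact cells (2 with all libraries), 0 to 4 (0) for EGF under knockdown, 1 to 8 for the mean EGF effect (2), 0 to 6 for knockdown without EGF (1), 0 to 2 for knockdown with EGF (1), 0 to 8 for the mean knockdown effect (0) and 0 to 3 for the interaction (0). The highest values came without a control library, in fits where more regions were also called over the whole genome for the same comparison. These counts are therefore not results about the members. With the replicate number as a block the counts were 0 for EGF in intact cells, 0 for knockdown without EGF and 0 for knockdown with EGF. Over all regions these 3 comparisons then had 0 calls too. The mean EGF effect then had 3, where 2958 of 28146 regions were called, and the block changed no other member count and no window call. Peaks with −log10 q of at least 5 gave 1 for EGF in intact cells, 1 for EGF under knockdown, 1 for its mean effect, and 0 for knockdown without and with EGF. Over all 12665 regions of that setting the calls were 750, 1042, 1585, 731 and 505. A pseudocount of 1000 bp gave 1 for EGF under knockdown, 1 for its mean effect, and 0 for knockdown without and with EGF. Over all 28146 regions the calls were 1647, 3631, 121 and 0. A pseudocount of 50 bp gave 2 for knockdown without EGF and 3 for the mean knockdown effect, against 842 and 844 over all regions. Lists of equal length gave 0 for EGF in intact cells, 2 for knockdown without EGF and 2 for the mean knockdown effect. Over all 24966 regions of that setting the calls were 1548, 641 and 887. Merging peaks within 1000 bp gave 1 for EGF in knockdown cells, 2 for knockdown without EGF and 2 for the mean knockdown effect. Over all 27492 regions of that setting the calls were 1828, 326 and 112. For knockdown without EGF, quantile normalization, no filter, a peak in at least 4 libraries and scaling to the total covered length (an alternative chosen after seeing the data) gave 0. Over all regions these settings had 0 calls too. For the mean knockdown effect quantile normalization and a peak in at least 4 libraries each gave 1. Over all 28146 and 23340 regions of these settings the calls were 263 and 194, against 99 in the main fit.

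For the windows, the leave-out range of the mean EGF effect was -0.35 to -0.18 at Ptf1a, -0.27 to -0.0045 at Nr5a2, -0.0471 to 0.15 at Bhlha15 (reversed without control library 1) and -0.46 to -0.35 at Rbpjl. Without control library 1 far more tiles and windows were called lower than with all libraries, so calls in that fit are not particular to a window. The leave-out range of the mean knockdown effect was 0.08 to 0.25 at Ptf1a, 0.0066 to 0.27 at Nr5a2, 0.12 to 0.32 at Bhlha15 and 0.45 to 0.56 at Rbpjl. Quantile normalization shifted the median region's mean EGF effect to 0.04, and gave 0.0146 at Ptf1a, 0.11 at Nr5a2, 0.34 at Bhlha15 (adjusted p = 0.0267) and -0.12 at Rbpjl (adjusted p = 0.217); its mean knockdown effects were -0.0219 at Ptf1a, -0.0374 at Nr5a2 and 0.32 at Rbpjl (adjusted p = 0.0333). Of 11056 tiles and windows, quantile normalization called 804 higher and 884 lower for the mean EGF effect. For the mean knockdown effect it called 155 higher and 238 lower. Scaling to the total gave mean EGF effects of 0.048 at Ptf1a, 0.18 at Nr5a2, 0.36 at Bhlha15 and -0.0885 at Rbpjl. With the stricter q the mean EGF effect was -0.47 at Ptf1a (limma, adjusted p = 0.0498) and -0.34 at Rbpjl (adjusted p = 0.297). That setting called 66 of 7352 tiles and windows higher and 693 lower. Without a filter the mean EGF effect was -0.40 at Rbpjl (limma, adjusted p = 0.210). Lists of equal length gave a mean knockdown effect of 0.55 at Rbpjl (limma, adjusted p = 0.0208), where 165 of 10531 tiles and windows were called higher and 131 lower. The cause of these changes was not tested. For the named regions' differences that passed with all libraries, 61 values under the alternatives passed too and 41 did not. For those that had not passed, 209 values did not pass either and 30 did. None of these values changed sign. Without a known depth, a missing peak cannot be told from a weak one, and with 2 libraries a group, differences under the spread of the controls cannot be resolved.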
